A study of Rattus norvegicus with 6 samples.

Results

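Reads placed on annotated 5S and 5.8S ribosomal RNA (rRNA) genes were examined in small RNA libraries of 6 clonal rat INS-1 lines. Members were chosen by gene name alone, as every row of the deposited table named 5S_rRNA, 5_8S_rRNA, Rn5-8s, or Rn followed by digits and an s. The names gave 330 of the 32883 rows. Of these, 288 were 5S rows (287 named 5S_rRNA, and Rn5s) and 41 were 5.8S rows (40 named 5_8S_rRNA, and Rn5-8s). The remaining row was Rn7sl1, which encodes 7SL, the RNA of the signal recognition particle. It is not an rRNA and was kept apart from both rRNA totals.

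The 5S and 5.8S rRNAs are the small RNAs of the large ribosomal subunit. The 5.8S rRNA is cut from the long precursor that RNA polymerase I makes in the nucleolus, where it lies between both internal transcribed spacers, and in the ribosome it is paired with 28S rRNA. The 5S rRNA is made separately, by RNA polymerase III with the help of TFIIIA, and is carried to the ribosome by the proteins Rpl5 and Rpl11. Both RNAs are encoded by many near-identical copies, and genomes hold many further partial or degenerate copies to which annotation pipelines give the same family name. A read from one copy can fit many rows, so no single row below can be taken as the source of its reads. Reads were counted per row, and the counts do not show whether a read came from the whole RNA or from a piece of it. In the RefSeq table for assembly GRCr8, which was used for names and lengths, Rn5s is 120 bases long, Rn5-8s is 156 and Rn7sl1 is 299, and the labels give a size limit of 200 nt for the libraries.

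The lines came from INS-1(832/13)::mCherry cells, a rat insulinoma line that secretes insulin and carries transgenes for human INS and for mouse Ins2 fused to mCherry. All 6 lines lack the Prader-Willi syndrome (PWS) imprinted domain on the silent maternal allele. The 3 control lines (5-9, and lines 2 and 16 derived from it) keep the active paternal allele, whereas the 3 PWS lines (3, 19-1 and 19-4, also derived from 5-9) lack it as well. Line 3 has a larger paternal deletion than the others, and lines 19-1 and 19-4 are subclones of 1 edited line. All lines were grown untreated in 7.5 mM glucose, and each is 1 clone with 1 library. The p-values given below therefore measure the spread between clonal lines.

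The libraries held 7373691 to 16480475 reads summed over all rows, of which miRNA genes took 88.5 to 90.0%. Snord116 genes, which lie in the deleted domain, had 4251 to 10516 reads in the control lines and 2 or 3 in the PWS lines, so every library matched its label. The β-cell miRNAs Mir375 (558022 to 833397 normalized reads) and Mir7a1 were abundant in every line. The mRNA of Ins1 was low (88.3 to 285 normalized reads) in these small RNA libraries, and Ins2 was read in 5 of the 6 lines. Of the markers of other cell types, Mir145 was at 0 in every line and Mir223 and Mir216a were at or below 6.54 normalized reads. Mir143, Mir142 and Mir217 reached 75.1 at most.

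Normalized reads are gene counts divided by the size factor that the authors computed for each library. Among the 5.8S rows, 40 of 41 had a read and 37 reached a mean of 5 normalized reads over the 6 lines, the level required for testing. Among the 5S rows, 115 of 288 had a read and 52 reached that level. The 5.8S row just above the limit had a mean of 5.72 normalized reads and the row just below it 4.82. For 5S these were 5.77 and 3.84. Rows below the limit held 0.00367% of the 5.8S reads and 0.156% of the 5S reads, so the totals below rest almost wholly on the rows tested.

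The 5.8S rows were among the most abundant RNAs in these libraries. Their sum was 385912 normalized reads in line 5-9, 349717 in line 2 and 399698 in line 16. In the PWS lines it was 258209 in line 3, 348889 in line 19-1 and 307051 in line 19-4. Set against the 32553 rows that are not members, this sum ranked between 8 and 13 in every line. As a share of the library, which here means the sum of reads over all rows of the table and so leaves out reads assigned to no gene and counts a read lying in several genes more than once, 5.8S took 3.31% of line 5-9, 3.50% of line 2 and 3.73% of line 16, and 2.64% of line 3, 3.26% of line 19-1 and 3.16% of line 19-4. Line 16 was the highest and line 3 the lowest on both scales. The exact 95% binomial intervals of these shares were at most 0.0261 percentage points wide, so the lines differed by far more than counting error, which is all that these intervals cover.

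The 5S rows together were about an order of magnitude less abundant than 5.8S. Their sum was 43577 normalized reads in line 5-9, 26926 in line 2, 49702 in line 16, 42262 in line 3, 30594 in line 19-1 and 32769 in line 19-4. It ranked between 33 and 44 against the rows that are not members. The 5S share was 0.374% in line 5-9, 0.270% in line 2, 0.464% in line 16, 0.432% in line 3, 0.286% in line 19-1 and 0.337% in line 19-4. The order of the lines was unlike that for 5.8S. Line 3, the lowest for 5.8S, had the second highest 5S share and the third highest normalized 5S sum, and line 2 was the lowest on both scales. Rn7sl1 was rarer still, at 268 to 416 normalized reads.

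**Figure D1:**
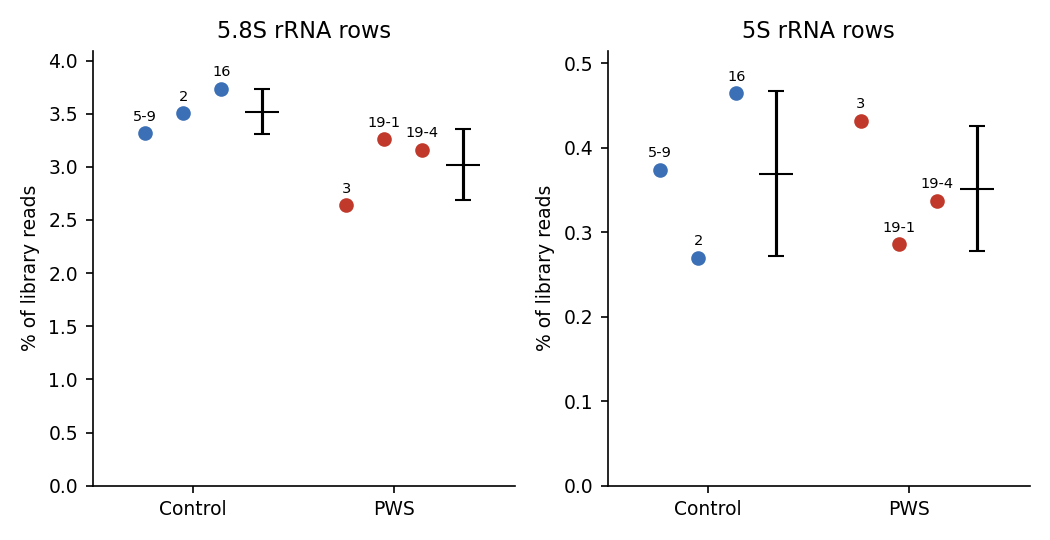
Share of library reads (%, vertical axes) taken by the 41 5.8S rows (left) and the 288 5S rows (right) in each line, with points for single lines and bars for the group mean ± SD (n = 3). All 3 PWS lines lie below all 3 control lines for 5.8S (2.64 to 3.26% against 3.31 to 3.73%), and the groups overlap for 5S.

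The comparison of genotypes asks whether loss of the domain, which encodes C/D-box snoRNAs of the nucleolus among other products, was accompanied by a change in these rRNA reads. The 5.8S share was lower in the PWS lines, at 3.02 ± 0.333% against 3.52 ± 0.210% in the control lines (SD, n = 3 each), a difference of -0.499 percentage points or 14.2% of the control mean. The groups did not overlap, but they came close, with line 19-1 only 0.0556 percentage points below line 5-9. The two-sided exact permutation test gave p = 0.1, the smallest that 3 lines against 3 can reach, and 0.15 after Benjamini-Hochberg adjustment over the 3 RNA types. Without line 3 the difference was -0.309 percentage points. The separation of the groups also depended on the denominator. Of the reads outside miRNA genes, 5.8S took 33.2, 32.4 and 32.8% in control lines 5-9, 2 and 16 and 25.3, 32.6 and 27.4% in PWS lines 3, 19-1 and 19-4, so that line 19-1 lay above line 2 (two-sided exact permutation p = 0.2). This test could not have placed the difference past 0.05. The limma test across all rows could have, and it did not call the same sum.

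In that fit, over 4205 rows with each rRNA type entered as 1 sum, 5.8S had a log2 fold change of -0.32 ± 0.19 (SE; PWS minus control, on log2 of normalized reads plus 1) and an adjusted p of 0.864 by limma. Without line 3 it was -0.21. On normalized reads the group means were 304716 ± 45385 in PWS and 378442 ± 25814 in control lines (SD, n = 3 each). The groups were only 828 normalized reads apart. A lower share of a library can arise from less of the RNA or from more of the other RNAs, and bulk libraries give no amount per cell. Nor do the counts show whether the whole RNA or pieces of it differed.

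For 5S, no difference between the genotypes was detectable. Its share was 0.352 ± 0.0741% in PWS and 0.369 ± 0.0974% in control lines (SD, n = 3 each), with overlapping groups and a two-sided exact permutation p of 0.8, which was also the adjusted value. The difference of -0.0179 percentage points was smaller than the SD of either group. It changed sign without line 16 (0.0295) and without line 19-1 (0.0150). The summed 5S level had a log2 fold change of -0.15 ± 0.24 (SE) and an adjusted p of 0.939 by limma.

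The ratio of 5S to 5.8S reads within a library does not depend on the size factor. It was 0.113 in line 5-9, 0.0770 in line 2, 0.124 in line 16, 0.164 in line 3, 0.0877 in line 19-1 and 0.107 in line 19-4. The lines spanned a 2.13-fold range, from line 2 to line 3, and the groups overlapped. Group means were 0.119 ± 0.0395 in PWS and 0.105 ± 0.0247 in control lines (SD, n = 3 each), with a log2 difference of 0.17 and a two-sided exact permutation p of 0.7. Its sign changed without line 2 (-0.04) and without line 3 (-0.09). Per base of the RefSeq lengths, 5S had 0.10 to 0.213 times the reads of 5.8S. As background, a ribosome holds equal numbers of both RNAs.

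Within 5.8S, nearly all reads fell on a few rows. The 7 most abundant rows held 98.9% of the 5.8S reads, with means of 47804 to 50678 normalized reads, and the next row had a mean of 1279. Apart from the leading row these were nearly equal, Rn5-8s among them, with the highest of the other 6 1.01 to 1.02 times the lowest in every line. Rn5-8s (ENSRNOG00000059852) had 54384 normalized reads in line 5-9, 48787 in line 2, 55976 in line 16, 36206 in line 3, 48857 in line 19-1 and 43431 in line 19-4. The leading row, ENSRNOG00000051831, had 56648, 52158 and 59418 in control lines 5-9, 2 and 16, and 37906, 52038 and 45899 in PWS lines 3, 19-1 and 19-4. It stood 1.05 to 1.07 times above the mean of the other 6 in every line, with a mean of 1.06 in either genotype. All 7 rows were highest in line 16 and lowest in line 3, so they give 1 pattern and not 7 separate ones.

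The 5S reads were spread over more rows, at 3 levels. The 9 most abundant rows held 93.3% of the 5S reads. The 4 rows at the top (ENSRNOG00000055067, ENSRNOG00000055727, ENSRNOG00000035103 and ENSRNOG00000055521) had means of 5290 to 5385 normalized reads. ENSRNOG00000055067 had 6252, 4015 and 6964 in control lines 5-9, 2 and 16 and 6016, 4393 and 4670 in PWS lines 3, 19-1 and 19-4. One row lay in between, ENSRNOG00000034316, with 4396, 2283 and 5042 in those control lines and 4293, 2751 and 2841 in those PWS lines. A further 4 rows had means of 2465 to 2570, among them Rn5s (ENSRNOG00000050259), the 5S gene with a symbol of its own, at 2891, 1347 and 3695 in control and 3040, 1932 and 2154 in PWS lines. All 9 rows were highest in line 16 and lowest in line 2.

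The 3 levels of 5S rows did not keep fixed proportions from line to line. ENSRNOG00000034316 stood at 0.576 (line 2) to 0.727 (line 3) of the mean of the top 4 rows, and the 4 lower rows at 0.377 (line 2) to 0.520 (line 19-4) of it. Line 2, in which 5S was lowest, thus had the lowest proportion of both lower levels. The groups overlapped in both ratios (two-sided exact permutation p = 1 and 0.6).

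**Figure D2:**
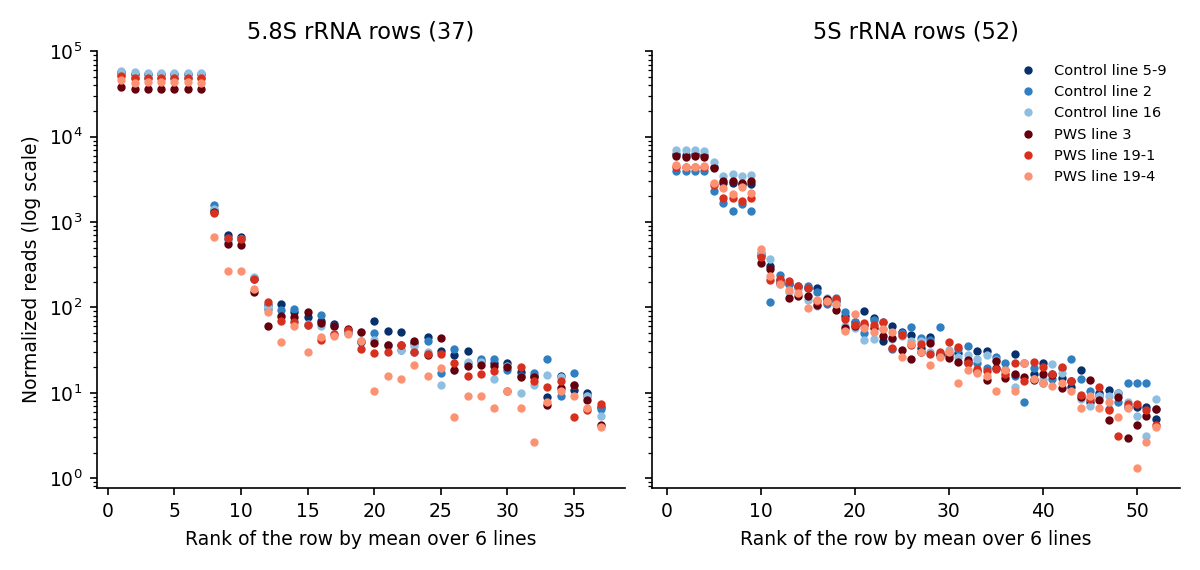
Normalized reads (log scale, vertical axis) of each tested row in each of the 6 lines against the rank of the row by its mean, for 37 5.8S rows (left) and 52 5S rows (right). The 7 leading 5.8S rows form 1 plateau (means of 47804 to 50678) and the 9 leading 5S rows form 3 levels (means of 2465 to 5385), each followed by a steep drop.

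The low rows behaved unlike the abundant ones. Levels were split at a mean of 10000 normalized reads for 5.8S and 1000 for 5S, limits chosen after the values were seen, so the following is a description. The 279 low 5S rows (106 with reads) took 0.0254, 0.0282 and 0.0251% of control lines 5-9, 2 and 16 and 0.0244, 0.0252 and 0.0255% of PWS lines 3, 19-1 and 19-4. Their summed share was nearly level across the lines, with the highest 1.15 times the lowest, whereas the 9 abundant 5S rows varied 1.82-fold, from 0.242% in line 2 to 0.439% in line 16. The low rows accordingly made up 10.4% of the 5S reads in line 2 and 5.40% in line 16. In normalized reads the sum of the low 5S rows was less level, with a 1.24-fold range. It was 2391 in line 3 and 2475 in line 19-4, against 2956 in line 5-9. Single low 5S rows are given here on that scale. Of the 43 tested, 17 had their lowest normalized value in line 19-4 and 13 in line 3, where the median row was at 83.7 and 85.9% of its own mean, against 108% in line 5-9 and 114% in line 2.

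The 34 low 5.8S rows (33 with reads) stood apart in 1 line. They took 0.0352, 0.0412 and 0.0352% of control lines 5-9, 2 and 16, 0.0360% of line 3, 0.0340% of line 19-1 and 0.0201% of line 19-4, or 59.9% of the mean of the 6 lines in line 19-4. The groups overlapped in this share but not in normalized reads. There the sum was 4104, 4111 and 3767 in control lines 5-9, 2 and 16. In PWS lines 3, 19-1 and 19-4 it was 3521, 3636 and 1956. Of the 30 such rows tested, 20 had their lowest value in line 19-4, where the median row was at 56.7% of its own mean in normalized reads. The abundant 5.8S rows of line 19-4 were at 97.0% of the 6-line mean, so the low and abundant rows of this line parted. Other RNA classes of the same library went both ways. Y RNAs took 0.260% of line 19-4 against 0.415 to 0.454% of the other lines, and U6 rows 0.00499% against 0.00814 to 0.0116%. U3 (0.181%), RNase_MRP (0.122%) and Vault (0.0328%) instead had their highest share of the 6 lines there. The part of this library in the low 5.8S values was not tested.

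**Figure D3:**
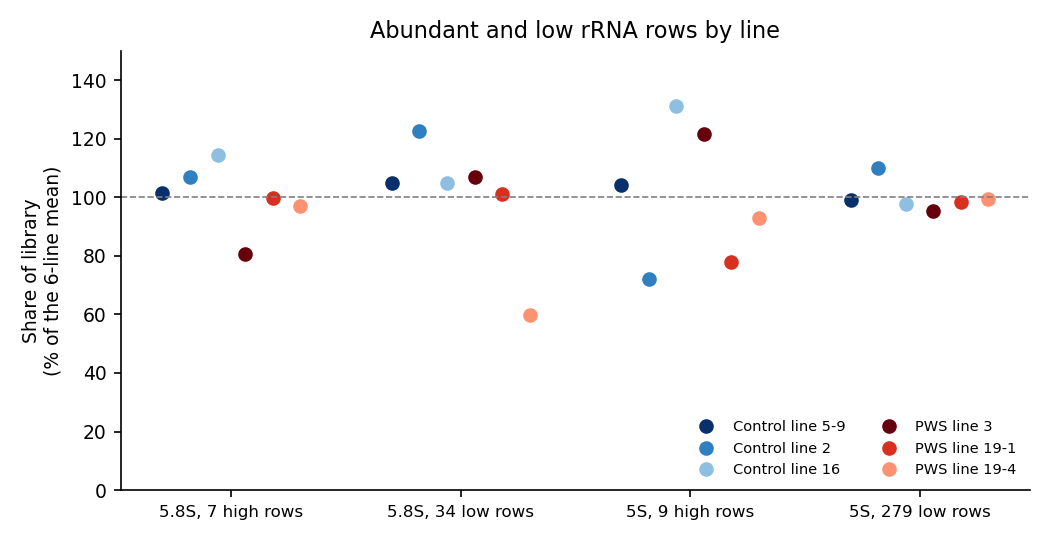
Share of the library taken by abundant and low rRNA rows in each line, as a percentage of the mean of the 6 lines (vertical axis, dashed line at 100%). The low 5.8S rows of line 19-4 lie at 59.9%, the 9 abundant 5S rows range from 72.2 to 131%, and the 279 low 5S rows stay between 95.3 and 110%.

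Row by row, no rRNA was called. Of the 89 5S and 5.8S rows tested, 0 passed an adjusted p of 0.1 by limma, against 1.28% of all 4292 rows tested. In all, 55 rows were called, all lower in PWS. The paper reports that nearly all small RNAs it called belonged to the deleted domain. How many of the 55 lie there was not counted, so 1.28% is not a rate for rows outside the domain. At an unadjusted p under 0.05, limma, edgeR and DESeq2 each had 1 of the 89 rows, against 5.96% of all rows tested by limma. By limma this was ENSRNOG00000053668, a low 5.8S row with 68.9, 49.7 and 41.7 normalized reads in control lines 5-9, 2 and 16 and 38.6, 29.4 and 10.5 in PWS lines 3, 19-1 and 19-4. Its groups did not overlap, and its log2 fold change was -1.15 ± 0.43 (SE) with an adjusted p of 0.736 by limma. Without line 19-4 the log2 fold change was -0.62.

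The fitted direction of the 5.8S rows was nevertheless shared. Of 37 tested, 35 had a lower mean of log2 values in PWS, a share of 94.6% against 49.7% of all rows tested, and their median log2 fold change was -0.34 against 0.0048 for all rows. In 11 of the 37 (29.7%) every PWS line lay below every control line, against 6.29% of all rows, and in 0 did every PWS line lie above, against 4.87%. These rows come from the same libraries and are near-identical copies between which reads cannot be placed with certainty, so they are not independent. The 7 abundant rows had log2 fold changes of -0.33 to -0.31 and an adjusted p of 0.860 each by limma, and in 3 of them the groups did not overlap. Leaving out line 3 brought the log2 fold change of the leading row from -0.32 to -0.20.

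The 5 most abundant 5.8S rows were ENSRNOG00000051831, ENSRNOG00000058725, Rn5-8s, ENSRNOG00000059394 and ENSRNOG00000053888, with log2 fold changes of -0.32, -0.33, -0.32, -0.33 and -0.31. Without line 3 these were -0.20, -0.21, -0.20, -0.22 and -0.19. Among the 5.8S rows whose groups did not overlap, the abundant ones besides ENSRNOG00000051831 were ENSRNOG00000059394 and ENSRNOG00000056172, each with PWS values lowest in line 3. Most of the low ones were lowest in line 19-4. ENSRNOG00000056963 had 1388, 1603 and 1412 normalized reads in control lines 5-9, 2 and 16 and 1317, 1288 and 666 in PWS lines 3, 19-1 and 19-4, with a log2 fold change of -0.49. ENSRNOG00000059464 had 674, 635 and 633 against 546, 626 and 265, and its log2 fold change was -0.53. In both rows line 19-4 was the lowest by far, and without it the log2 fold changes were -0.17 and -0.15. ENSRNOG00000056513 had 216, 224 and 228 against 153, 215 and 163, highest in line 16 and lowest in line 3 as in the abundant rows. ENSRNOG00000060149 had 45.3, 40.5 and 30.1 against 27.9, 28.4 and 15.8, with a log2 fold change of -0.69, or -0.42 without line 19-4. None of these passed the adjusted threshold by limma.

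The 5S rows showed less. Of 52 tested, 44 had a lower mean of log2 values in PWS (84.6% against 49.7% of all rows tested), all 9 abundant rows among them. The 52 had a median log2 fold change of -0.18 and a range of -0.94 to 0.29. Like the 5.8S rows, they are near-identical copies read in the same libraries and are not independent. Every PWS line lay below every control line in 3 of the 52 (5.77%), a share near the 6.29% of all rows, and in 0 of the 9 abundant rows. The most abundant of the 3 was ENSRNOG00000035293, with 47.3, 58.8 and 40.9 normalized reads in control lines 5-9, 2 and 16 and 24.9, 36.8 and 36.9 in PWS lines 3, 19-1 and 19-4. Its log2 fold change was -0.57 ± 0.33 (SE), with an adjusted p of 0.860 by limma. The smallest adjusted p of any 5S row was 0.848 by limma.

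**Figure D4:**
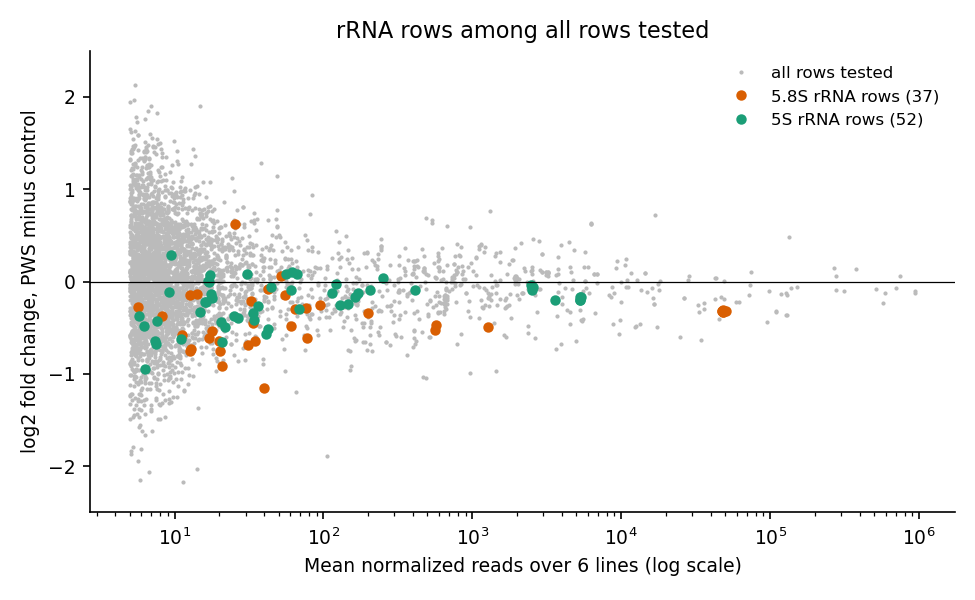
Log2 fold change (PWS minus control, vertical axis) against mean normalized reads (log scale, horizontal axis) for the rows tested, with 5.8S rows in orange and 5S rows in green. Of 37 5.8S rows, 35 lie below 0, the 7 abundant ones near -0.32, and 55 of the 4292 rows, none of them an rRNA row, lie beyond the axis.

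The 3 shallowest libraries, of lines 2, 19-1 and 19-4, had the 3 lowest 5S shares. Over the 6 lines, which include 2 subclones of 1 line, the 5S share was compared with the depth of the library (Pearson r = 0.826, exact permutation p = 0.0431, adjusted 0.0949; Spearman rho = 0.771, exact permutation p = 0.103, adjusted 0.171). The ratio of 5S to 5.8S reads was compared likewise (r = 0.872, exact permutation p = 0.0208, adjusted 0.0949; rho = 0.829, exact permutation p = 0.0583, adjusted 0.171). Without the 2 lines farthest from the median depth, lines 3 and 19-4, r was 0.942 and 0.971. Values were much weaker for the 5.8S share (r = -0.373, exact permutation p = 0.488; rho = -0.0286, exact permutation p = 1). Without lines 3 and 19-4 its r turned to 0.398. The share of 5S reads on low rows had r = -0.805 (exact permutation p = 0.0569, adjusted 0.0949; rho = -0.771, exact permutation p = 0.103, adjusted 0.171), and that of 5.8S reads on low rows r = 0.580 (exact permutation p = 0.231; rho = 0.486, exact permutation p = 0.356). Without lines 3 and 19-4 these were -0.992 and -0.940. In all, 5 relations with depth were computed, chosen after the values were seen. After Benjamini-Hochberg adjustment 3 of the Pearson values were under 0.1, none was under 0.05, and no Spearman value was under 0.1. Those 3 relations all use the 5S sum, so they give 1 pattern and not 3 separate ones. Within the control lines the 5S share had the same order as depth (lines 2, 5-9 and 16), and within the PWS lines the deepest, line 3, had the highest share, but the shallowest, line 19-4, did not have the lowest. A fit of genotype and depth together was not made, and the part of depth in the 5S values was not tested.

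**Figure D5:**
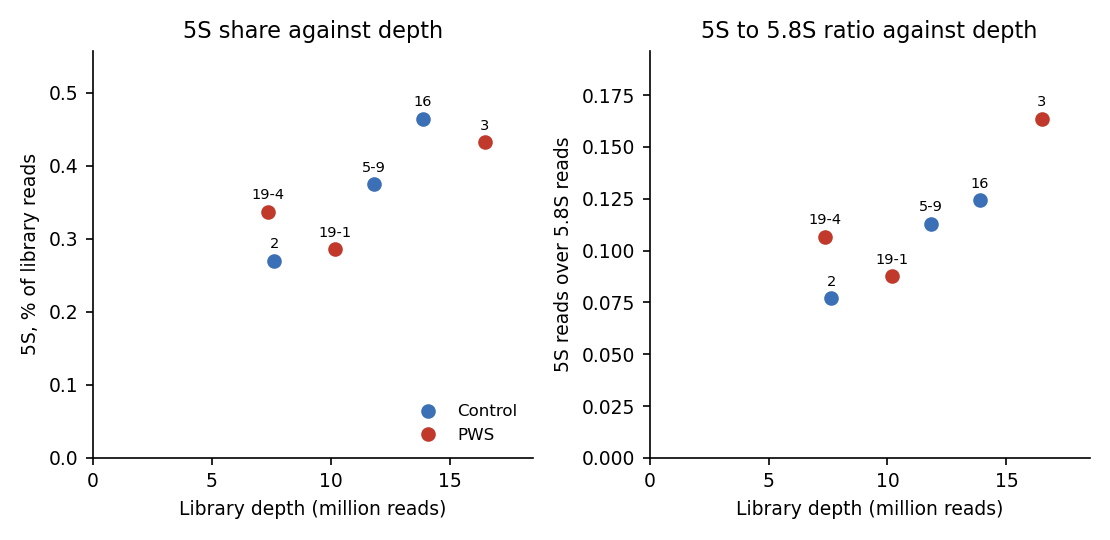
5S share of the library (%, left) and ratio of 5S to 5.8S reads (right) against library depth (horizontal axes, reads, with the scale on the axis), with 1 point for each line. Lines 2, 19-1 and 19-4, the 3 shallowest (7373691 to 10192806 reads), have the 3 lowest values in both panels.

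Counting rules touched the 5S rows slightly and the 5.8S rows not at all. In the table used here, a read lying in several genes was added to each of them, and in the other deposited table such reads were left out. The 5.8S rows kept every one of their 2177133 reads in the second table, and the 5S rows lost 0.752% of their 254394. The loss fell on 7 5S rows: ENSRNOG00000054827, ENSRNOG00000046771 and ENSRNOG00000036044 lost all of their 419, 208 and 70 reads, ENSRNOG00000034535 kept 1.56% and ENSRNOG00000034790 49.6%, and the abundant ENSRNOG00000060018 and ENSRNOG00000050589 kept 96.6 and 97.1%. Rn7sl1 lost 61.5% of its 2154 reads.

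Outside the members, some genes had profiles over the 6 lines much like these totals. Among 573 genes whose mean was 100 normalized reads or more, the log2 profile most like that of the 5.8S total belonged to Mir378b (r = 0.900 over 6 lines), followed by the SNORD116 row ENSRNOG00000051750 (0.802), a snoRNA of the deleted domain, and Mir365b (0.794). Snord116 genes together had 2 or 3 reads in each PWS line, so the profile of the SNORD116 row mainly follows the genotype. For the 5S total the most alike were the Metazoa_SRP row ENSRNOG00000048993 (0.975), named for the RNA of the signal recognition particle, and the clone-named genes AABR07015080.2 (0.954) and AABR07015078.1 (0.947). The means of the clone-named genes, 2484 and 2477 normalized reads, lay in the range of the 4 lower abundant 5S rows. These are the highest of many correlations over few libraries and are given as a description.

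RNAs of precursor processing were examined as a list. The list held the RNA of RNase MRP, which cuts the precursor upstream of 5.8S, U8, which acts in maturation of 5.8S and 28S, and Snord71 and Snord96, listed as methylation guides of 5.8S. It also held U3, U13, U14 and U17, which act mainly on the 18S part of the same precursor and made up most of its rows. Of its 36 rows, 24 were tested and 0 were called in either direction against a background of 1.28%, which in so few rows also gives few or no calls. Of these rows, 12 were fitted lower and 12 higher in PWS, with a median log2 fold change of 0.043. RNase_MRP, the most abundant at a mean of 9931 normalized reads, had a log2 fold change of -0.01 ± 0.22 (SE) and an adjusted p of 0.994 by limma. U8 (mean 553) had 0.20 ± 0.28, Snord71 (544) had -0.27 ± 0.25 and SNORD96 (142) had 0.49 ± 0.29, with adjusted p of 0.918, 0.889 and 0.860 by limma. The leading U3 row (ENSRNOG00000060466, mean 3236) had 0.09 ± 0.22 and an adjusted p of 0.958 by limma. As shares of the library, RNase_MRP and U3 were in overlapping groups (two-sided exact permutation p = 0.7 and 0.3).

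The mRNAs of the rRNA machinery were barely read in these libraries. Of the list for the 5S particle and 5S transcription (Rpl5, Rpl11, Rpf2, Rrs1 and Gtf3a, the gene of TFIIIA), 2 of 5 genes were tested and 0 called. They were Rpl11 (mean 12.5 normalized reads, log2 fold change 0.24 ± 0.41) and Rpl5 (11.1, 0.40 ± 0.39). Of 19 genes that trim the 3′ end of 5.8S or cut its downstream spacer, 5 were tested and 0 called, the most abundant being the exonuclease gene Xrn2 (10.2, 0.56 ± 0.44) and the exosome subunit gene Exosc3 (8.56, 0.03 ± 0.57). Of 29 genes of RNA polymerase I and III transcription, 9 were tested and 0 called, led by the TFIIIC subunit genes Gtf3c4 (31.7, 0.16 ± 0.37) and Gtf3c1 (10.9, 0.06 ± 0.41). The smallest adjusted p over these 3 lists was 0.882 by limma, and 0 of the 16 genes tested had an unadjusted p under 0.05 by limma. Against backgrounds of 1.28% called and 5.96% with an unadjusted p under 0.05, counts of 0 in so few genes say little about these lists. Means this low left standard errors of 0.37 to 0.57 for the genes named, so a modest change in these mRNAs was not detectable. A list of mitochondrial rRNA genes matched 0 rows by symbol and was not analysed here.

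Rn7sl1 lay lower in the PWS lines and did not pass a test. It had 373, 320 and 416 normalized reads in control lines 5-9, 2 and 16 and 309, 282 and 268 in PWS lines 3, 19-1 and 19-4, with groups that did not overlap. Its share of the library gave the smallest possible two-sided exact permutation p of 0.1 (0.15 adjusted). The closest shares were 0.00316% in PWS line 3 and 0.00321% in control line 5-9. Their exact binomial intervals overlapped (0.00289 to 0.00344% and 0.00289 to 0.00354%), so the gap in share was within counting error. The log2 fold change of Rn7sl1 was -0.36 ± 0.26 (SE) with an adjusted p of 0.876 by limma. With reads lying in several genes left out, which removed 61.5% of the Rn7sl1 reads, it was -0.25. The 33 Metazoa_SRP rows, named for the same particle, overlapped between genotypes in their share (0.0242 ± 0.00384% in PWS and 0.0267 ± 0.00611% in control lines, SD, n = 3 each, two-sided exact permutation p = 0.7).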

How the data were processed

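Small RNA libraries from 3 control and 3 PWS INS-1 lines were made with a miRNA kit that adds unique molecular identifiers, with size selection widened to longer fragments. Per the methods of the study and the submitters' processing notes, the authors removed duplicates with UMI-tools 1.0.0, trimmed with cutadapt 1.18, aligned with Bowtie2 2.3.4.2 to a custom annotation (build Rnor_6.0 in the notes) and counted with HTSeq 0.11.2. The notes also list featureCounts. Collapsing identifiers leaves molecules where amplification copies would otherwise be counted, but how alignments to near-identical copies were chosen is not given in the sources used here. The deposited signal is normalized reads: counts that the authors scaled with DESeq2 size factors. Every value was a whole multiple of 1 read (100% within 0.001), so reads and depth were recovered. The authors also deposited a mean, log2 fold changes, standard errors and p-values, which were not used.

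Rows were selected by name and summed by type. Shares and ratios were compared by two-sided exact permutation tests, in which 3 lines against 3 cannot go below 0.1. Rows whose mean reached 5 normalized reads were tested by limma-trend (limma 3.58.1, R 4.3.3) on log2(normalized reads + 1), with genotype as the sole term, Benjamini-Hochberg adjustment over all rows and a cutoff of 0.1. The fit was tested on simulated data. The count test is not the main test because the deposited values are not counts. Alternatives were pseudocounts of 0.5 and 5, filters at 1, 20 and none, a cutoff of 0.05, upper-quartile and TMM scaling, edgeR 4.0.16 and DESeq2 1.42.0 on the recovered reads, the second deposited table, other denominators for the shares, the replicate number as a block, lines 19-1 and 19-4 averaged, and each line left out. Sums over abundant rows only and the relations with depth were added after seeing the data.

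Named rows were the 5 most abundant of each type, every called row, and the 10 non-overlapping rows with the largest difference of means; the 2 most abundant genes of each list; and the 3 genes most like each total. Rn5s, the rows affected by the counting option and the RNAs of other classes were named besides. The members and gene lists were chosen with earlier results of these data known. No sequence of a member was found in the reference tables (3 symbols matched by name, 0 by Ensembl identifier), and no coordinates are given because the builds differ.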

Additional observations from a re-analysis of the deposited data

How the results depend on the processing

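No rRNA row was called by limma at 0.1, nor under any of 19 alternatives, edgeR and DESeq2 included; rows with an unadjusted p under 0.05 numbered 0 to 7 across them, and 1 by edgeR and by DESeq2. The 5.8S difference kept its sign throughout. Leaving out 1 line at a time moved its share from -0.619 to -0.309 percentage points, and its summed log2 fold change from -0.42 to -0.21. Other settings gave -0.38 to -0.28 for the sum. With miRNA genes left out of the denominator, the 5.8S share differed by -4.39 percentage points (exact permutation p = 0.2) and the groups overlapped. The 5S values had no stable sign: the share difference was 0.00215 with lines 19-1 and 19-4 averaged and -0.0677 to 0.0295 with 1 line left out, where it was positive without line 16 (0.0295) or 19-1 (0.0150). With 1 line left out, the summed 5S log2 fold change ran from -0.42 to 0.025 (positive without line 16), that of ENSRNOG00000034316 from -0.55 to 0.026 (positive without line 16), and the log2 ratio of 5S to 5.8S from -0.085 to 0.36 (negative without line 2, -0.04, or line 3, -0.085). The causes were not tested. The labels number the lines 1 to 3 in both groups, but the sources used here do not say that a number marks a shared culture or preparation, and same-numbered lines deviated together only in part (correlations 0.414, 0.218 and -0.0574 over 1087 genes). With the replicate number as a block, limma gave -0.32 for summed 5.8S (adjusted p = 0.796) and -0.15 for summed 5S (adjusted p = 0.919), with 0 rows called. Reads on the machinery mRNAs were few, and 3 lines a group limit every test.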
